A study of Mus musculus with 8 samples.

Results

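Fos, Fosb, Fosl1, Fosl2, Jun, Junb, Egr1, Nr4a1, Nr4a2 and Ier2 are immediate early genes, which a cell switches on within minutes of a stimulus and without making new protein first. They were taken by name from the 24460 genes in the count tables, as members of the FOS, JUN, EGR and NR4A families together with Ier2. All 10 were found, and all 10 were among the 14296 genes that passed the filter on low counts. The list was chosen by the genes' own normalized counts, which were already known at the 3 doses, so every difference between doses in these genes is given as a description, with its standard error (SE) and with no p.

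RNA-Seq was performed on wild type mouse embryonic fibroblasts (MEFs) kept in medium without RHPS4 (3 libraries, 0 µM), with 2 µM of it (3 libraries) or with 10 µM (2 libraries). RHPS4 is a ligand of G-quadruplexes, the folded structures that runs of guanine can form. The libraries were made from total RNA that had been depleted of nuclear ribosomal RNA. The cells were subconfluent when treated and were lifted with trypsin before freezing. The methods give exposures of 16 h and of 24 h and the study chose 24 h for 2 µM in general, but the time for these libraries is not given in the sources used here, and nothing says that the libraries of a dose came from separate cultures, so a p measures only the spread between these libraries, which may be technical.

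The 2 µM and the 10 µM libraries were each compared with the same 3 libraries at 0 µM, and those comparisons therefore share their controls. Total counts ran from 10455965 to 26688121 per library. On these unscaled totals, 3 counts corresponded to 0.112 to 0.287 counts-per-million (CPM). On the TMM-scaled totals behind the other CPM values, 3 counts were 0.119 CPM in the third library at 0 µM and 0.311 CPM in the first. mtDNA features took 13.2% to 14.4% of the counts at 0 µM, 7.40% to 8.26% at 2 µM and 5.33% to 6.32% at 10 µM. All 10 fibroblast markers were expressed. Their summed level was 14088 to 14535 CPM at 0 µM, 12845 to 13059 CPM at 2 µM and 12489 to 12807 CPM at 10 µM. Of 16 markers of epithelial, endothelial, leukocyte and muscle cells, 8 passed the filter, 0 were without a count in every library and none was above 7.20 CPM in any library, the highest being Cd68. Thy1, the lowest fibroblast marker, was at 5.11 to 7.78 CPM. Cd68 was below it in some libraries and above it in others, such as the first at 10 µM, with 7.20 against 5.98 CPM. The share of mtDNA counts and the fibroblast markers moved with the dose. Scaling over nuclear genes alone was among the alternatives given at the end, and their part in the results was not tested otherwise. In a bulk library, fewer cells expressing a gene and less RNA per cell cannot be told apart.

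Immediate early genes are driven by factors that already wait at their promoters, among them SRF with its ternary complex partners and CREB, once MAP kinase or cAMP signalling modifies them. Their mRNAs are short-lived, so levels fall back quickly when the signal stops. FOS proteins pair with JUN proteins through a leucine zipper to form AP-1, EGR1 is a zinc finger factor, NR4A1 and NR4A2 are orphan nuclear receptors whose activity follows their amount, and IER2 is a small nuclear protein of the same early response.

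Fos, Fosb, Nr4a1 and Nr4a2 were lower at both doses, and their upstream sequences are shown because the promoters of genes that move together can be set side by side. Jun, whose libraries overlapped between 2 µM and 0 µM, is shown for contrast. Junb and Fosl2 overlapped there too and are not printed. Each run is the 250 bases before the RefSeq start site on GRCm38.p6, read along the gene's strand from 5′ to 3′. Capitals mark TGACG or its reverse complement CGTCA, a partial form of the cAMP response element that CREB binds. The Fos run is chr12:85473640-85473889 on the plus strand, the Fosb run chr7:19310046-19310295 on the minus strand, the Jun run chr4:95052223-95052472 on the minus strand, the Nr4a1 run chr15:101266596-101266845 on the plus strand and the Nr4a2 run chr2:57124004-57124253 on the minus strand.
Fos: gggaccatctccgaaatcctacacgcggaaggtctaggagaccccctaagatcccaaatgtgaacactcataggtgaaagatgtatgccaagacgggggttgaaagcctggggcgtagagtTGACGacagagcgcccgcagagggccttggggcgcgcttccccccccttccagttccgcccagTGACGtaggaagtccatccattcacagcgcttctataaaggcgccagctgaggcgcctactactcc
Fosb: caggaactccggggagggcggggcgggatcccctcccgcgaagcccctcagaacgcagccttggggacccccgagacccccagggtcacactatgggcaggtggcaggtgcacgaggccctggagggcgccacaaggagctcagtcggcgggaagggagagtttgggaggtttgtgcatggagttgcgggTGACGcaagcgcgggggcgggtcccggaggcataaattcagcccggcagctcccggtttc
Nr4a1: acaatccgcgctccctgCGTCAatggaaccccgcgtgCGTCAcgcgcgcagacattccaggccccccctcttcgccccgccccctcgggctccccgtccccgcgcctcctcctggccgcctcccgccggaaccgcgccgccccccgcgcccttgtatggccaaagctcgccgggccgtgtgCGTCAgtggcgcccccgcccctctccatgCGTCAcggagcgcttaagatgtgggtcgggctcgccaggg
Nr4a2: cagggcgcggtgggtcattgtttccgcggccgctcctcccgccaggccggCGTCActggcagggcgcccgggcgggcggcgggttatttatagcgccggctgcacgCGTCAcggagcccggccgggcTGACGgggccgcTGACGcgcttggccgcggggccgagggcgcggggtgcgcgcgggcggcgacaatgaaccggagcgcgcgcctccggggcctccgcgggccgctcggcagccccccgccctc
Jun: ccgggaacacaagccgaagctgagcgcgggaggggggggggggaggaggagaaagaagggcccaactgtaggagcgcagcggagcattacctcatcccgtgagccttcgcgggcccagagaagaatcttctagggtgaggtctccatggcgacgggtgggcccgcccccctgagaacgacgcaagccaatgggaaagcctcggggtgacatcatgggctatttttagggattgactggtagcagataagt

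RefSeq start sites were at hand for 7 of the 10 genes, and Fosl1, Egr1 and Ier2 had no entry. The windows of Nr4a1 and Fosl2 lie inside their annotated genes, so bases before the first annotated start of these genes were not searched. The bases that follow the Junb start were not found in any annotated transcript of that gene. TGACG was present on either strand upstream of Fos, Fosb, Junb, Nr4a1 and Nr4a2 and was not found in the windows of Jun and Fosl2, against 17.8% of all 32851 promoters. Junb thus held a match although its libraries overlapped between 2 µM and 0 µM. Fos held matches at −129 to −125 and at −66 to −62 bases from the start, and Fosb held a single match at −60 to −56. Nr4a1 and Nr4a2 held 4 matches each, and those of Nr4a1 all lay on the opposite strand. The matches are descriptions of these letters and not of binding.

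Of the other motifs, searched on both strands, the full element TGACGTCA (1.55% of all promoters), the CArG box that SRF binds (1.47%) and the AP-1 sites TGAGTCA and TGACTCA (4.46%, each being the reverse complement of the other) had no match in the 7 windows. A full element also counts as a TGACG match. Only exact letters were searched, so near matches were not counted. TGACATCA in the Jun window, 1 base from the full element, is such a near match. Bases further upstream were not searched, so the lack of a match in a window says nothing about sites beyond it. Whether these genes hold an SRF, CREB or AP-1 site there was not tested. The EGR site GCGGGGGCG (2.57%) was present upstream of Fosb, Fosl2 and Nr4a1. TATAAA (12.4%) was present upstream of Fos at −33 to −28 and, on the opposite strand, of Nr4a2. A set of 4 runs of at least 3 G separated by 1 to 7 bases, the pattern that can fold into a G-quadruplex, was found upstream of Fosb, Jun, Nr4a1 and Nr4a2 and in 16.7% of all promoters. The separating bases could themselves be G, in these windows and in that share. In Jun the match is GGG, an A and then 1 unbroken run of G, and not 4 runs parted by other bases. GC content was 58.4% for Fos, 61.2% for Jun, 64.4% for Fosl2, 66.4% for Junb, 68.8% for Fosb, 74.4% for Nr4a1 and 80.0% for Nr4a2. The median over all promoters was 52.4%.

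**Figure D1:**
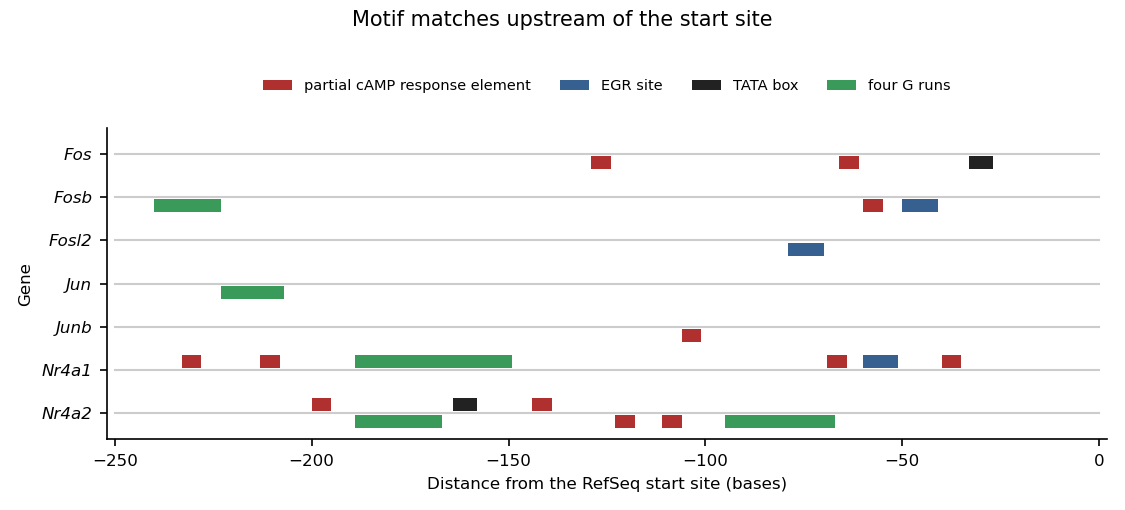
Position of each motif match in bases from the RefSeq start site (0, at the right) for the 7 genes with an entry, with matches on the gene's own strand drawn under the line and those on the opposite strand above it. Nr4a1 and Nr4a2 each hold 4 partial cAMP response elements, Fos 2, Fosb and Junb 1 each, and Jun and Fosl2 none.

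The members spanned a wide range in untreated cells. Per kb of exon, which is the scale for comparing levels between genes, Jun was highest at 0 µM, with a mean of 40.5 CPM per kb, followed by Fosl1 at 35.4, Fosl2 at 25.4, Junb at 24.0, Egr1 at 18.0 and Ier2 at 10.5 CPM per kb. Nr4a2 at 6.09, Nr4a1 at 4.88, Fos at 3.61 and Fosb at 1.42 CPM per kb were the lowest. Among neighbours in this order, the libraries of Fosl2 and Junb overlapped, and those of the other neighbours did not. The order depends on lengths that join all annotated exons of a gene, which can exceed the expressed transcript. The 4 genes that were lower at both doses were thus the 4 at the bottom of the order.

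Fos, the founding partner of JUN in AP-1 (chr12:85473890-85477273, 4 exons), was at 8.10, 9.07 and 8.30 CPM in the 3 libraries at 0 µM. At 2 µM it was at 2.12, 2.12 and 3.63 CPM, and at 10 µM at 4.40 and 3.02 CPM. Every treated library was lower than every untreated library, and the doses overlapped with each other. The log2 fold change was −1.65 (SE 0.204) at 2 µM, 3.14-fold lower, and −1.18 (SE 0.216) at 10 µM, 2.27-fold lower. These levels rest on few fragments: the smallest count was 24, with a 95% Poisson interval of 15.4 to 35.7 counts that covers counting error only.

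Fosb, which encodes a full-length and a shortened FOS protein that gene counts do not separate (chr7:19302696-19310051), was at 7.16, 10.4 and 9.01 CPM at 0 µM. It was at 2.38, 3.42 and 3.86 CPM at 2 µM and at 4.58 and 3.17 CPM at 10 µM. As for Fos, no treated library reached an untreated one. Its log2 fold change was −1.45 (SE 0.202) at 2 µM and −1.21 (SE 0.219) at 10 µM.

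Fosl1, which encodes FRA1, an AP-1 subunit kept high by sustained ERK signalling (chr19:5447547-5455946, 4 exons), had another pattern. It was at 68.0, 73.2 and 74.5 CPM at 0 µM and at 78.8, 72.1 and 75.3 CPM at 2 µM, so that these groups overlapped. At 10 µM it was at 36.9 and 25.7 CPM, below all 6 other libraries. The log2 fold change was 0.07 (SE 0.109) at 2 µM, −1.20 (SE 0.129) at 10 µM and −1.26 (SE 0.130) between 10 µM and 2 µM.

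Fosl2, which encodes FRA2, the other FOS-related antigen (chr5:32135801-32157842), was at 220.6, 258.7 and 258.3 CPM at 0 µM and at 212.2, 219.2 and 221.2 CPM at 2 µM. At 10 µM it was at 281.8 and 250.7 CPM. Both 10 µM libraries were above the 3 at 2 µM and overlapped with those at 0 µM. Its log2 fold change was −0.18 (SE 0.0806) at 2 µM, 0.11 (SE 0.0896) at 10 µM and 0.29 (SE 0.0896) between the doses.

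**Figure D2:**
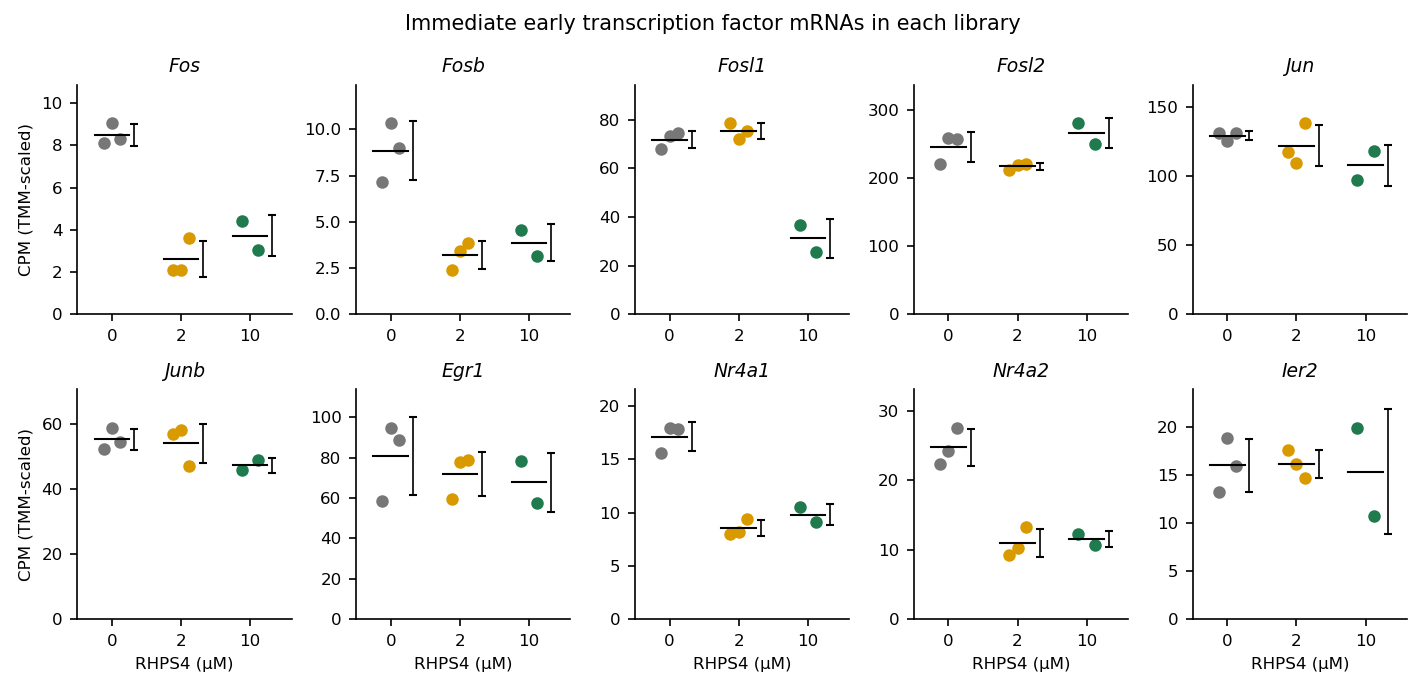
CPM of each gene (vertical axis, from 0, TMM-scaled) in every library (points) by RHPS4 dose in µM, with the mean (line) and SD (bar) of 3, 3 and 2 libraries. Fos, Fosb, Nr4a1 and Nr4a2 are lower at both doses, Fosl1 at 10 µM alone, and the libraries of Egr1 and Ier2 overlap at all doses.

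The FOS family therefore differed in make-up between the doses. Summed per kb of exon, its 4 mRNAs stood at 65.8 ± 4.31 CPM per kb in untreated cells (SD, n = 3), 61.2 ± 1.40 with 2 µM (n = 3) and 45.1 ± 6.76 with 10 µM (n = 2). Fosl1 made up 53.8% ± 1.12, 60.6% ± 1.69 and 33.9% ± 3.60 of that sum, in the same order. Fosl2 made up 38.6% ± 0.953, 36.7% ± 1.32 and 61.3% ± 4.15. Fosl2 was the most abundant FOS mRNA per length in both libraries at 10 µM, and Fosl1 was in the other 6. Fos made up 5.49% ± 0.283 of the family at 0 µM, 1.82% ± 0.579 at 2 µM and 3.47% ± 0.397 at 10 µM, and Fosb 2.14% ± 0.274, 0.844% ± 0.202 and 1.36% ± 0.151.

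**Figure D3:**
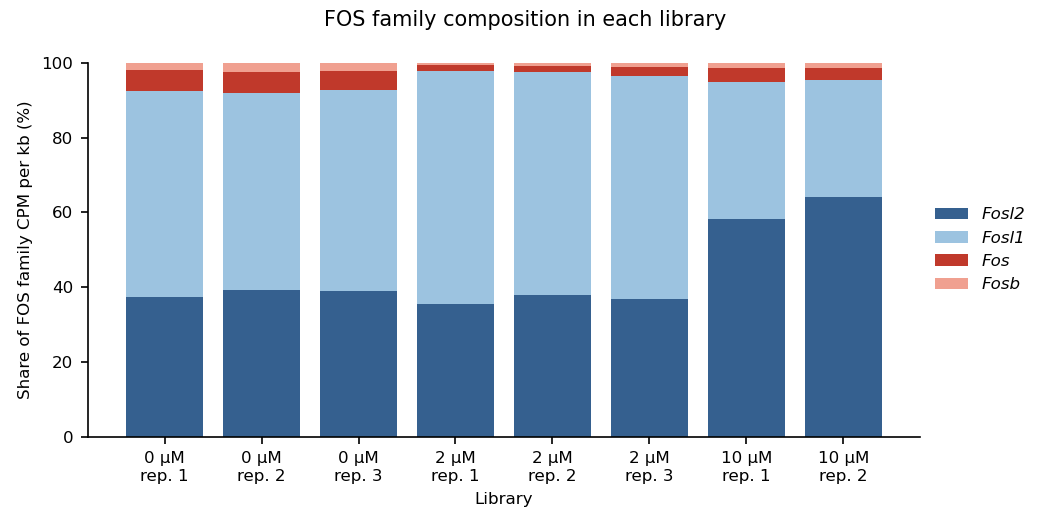
Share of each FOS mRNA (percent of the family's CPM per kb of exon, vertical axis from 0 to 100) in each of the 8 libraries. Fosl1 is the largest part in the 6 libraries at 0 and 2 µM, and Fosl2, at 58.4% and 64.2%, in both libraries at 10 µM. The shares depend on the exon lengths used, and in CPM Fosl2 is above Fosl1 in every library.

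Jun, the main AP-1 partner of FOS (chr4:95049034-95052222, a single exon), was at 131.3, 125.3 and 130.8 CPM at 0 µM, at 117.2, 109.6 and 138.4 CPM at 2 µM and at 97.4 and 118.3 CPM at 10 µM. The 2 µM libraries overlapped with the untreated ones, and both 10 µM libraries were lower than these. The log2 fold change was −0.08 (SE 0.0980) at 2 µM and −0.26 (SE 0.110) at 10 µM.

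Junb, a JUN protein that activates transcription less strongly than JUN (chr8:84974484-84978718, a single exon), was at 52.2, 58.8 and 54.5 CPM at 0 µM. It was at 56.9, 58.0 and 47.0 CPM at 2 µM and at 45.7 and 48.8 CPM at 10 µM. Its 10 µM libraries also lay below the 3 untreated ones, with a log2 fold change of −0.04 (SE 0.0918) at 2 µM and −0.23 (SE 0.103) at 10 µM. With Jund, the third JUN mRNA, the family summed to 103.7 ± 3.88 CPM per kb in untreated cells (SD, n = 3), 97.6 ± 1.30 with 2 µM (n = 3) and 107.2 ± 6.64 with 10 µM (n = 2). Jund made up 37.7% ± 2.75 of that sum at 0 µM, 36.9% ± 2.49 at 2 µM and 49.3% ± 2.11 at 10 µM.

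Exons of Fosl1, Jun and Junb overlap genes on the opposite strand (Ccdc85b, Junos and Prdx2). The library kit keeps the strand, but the strand setting of the counting is not given in the sources used here, so the levels of these 3 genes could hold fragments of their partners.

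Egr1, the zinc finger factor (chr18:34859823-34864984), varied more within a dose than between doses. It was at 58.6, 94.9 and 88.9 CPM at 0 µM, at 59.4, 77.8 and 78.7 CPM at 2 µM and at 78.2 and 57.5 CPM at 10 µM. All 3 groups overlapped, and the log2 fold change was −0.18 (SE 0.175) at 2 µM and −0.26 (SE 0.196) at 10 µM.

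Nr4a1, or NUR77 (chr15:101254269-101274795), was at 15.6, 18.0 and 17.8 CPM at 0 µM, at 8.02, 8.15 and 9.39 CPM at 2 µM and at 10.5 and 9.14 CPM at 10 µM. No treated library reached the untreated ones. Its log2 fold change was −1.01 (SE 0.112) at 2 µM, 2.01-fold lower, and −0.81 (SE 0.123) at 10 µM, 1.75-fold lower.

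Nr4a2, or NURR1, best known for its role in dopamine neurons (chr2:57106830-57124003, 8 exons), was at 22.3, 24.2 and 27.5 CPM at 0 µM, at 9.26, 10.3 and 13.2 CPM at 2 µM and at 12.3 and 10.6 CPM at 10 µM. Treated and untreated libraries were again separate and the doses overlapped. The log2 fold change was −1.17 (SE 0.135) at 2 µM, 2.25-fold lower, and −1.11 (SE 0.152) at 10 µM, 2.17-fold lower. The NR4A family, with the scarce Nr4a3, summed to 11.2 ± 0.989 CPM per kb in untreated cells (SD, n = 3), 5.31 ± 0.754 with 2 µM (n = 3) and 5.77 ± 0.619 with 10 µM (n = 2).

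Ier2 (chr8:84661331-84662852, a single exon) was at 13.3, 18.8 and 16.0 CPM at 0 µM, at 17.6, 16.2 and 14.7 CPM at 2 µM and at 20.0 and 10.8 CPM at 10 µM. The 10 µM libraries lay on either side of all 6 others, with a coefficient of variation of 42.2%, the largest of any member at any dose. Its log2 fold change was −0.01 (SE 0.194) at 2 µM and −0.07 (SE 0.215) at 10 µM.

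**Figure D4:**
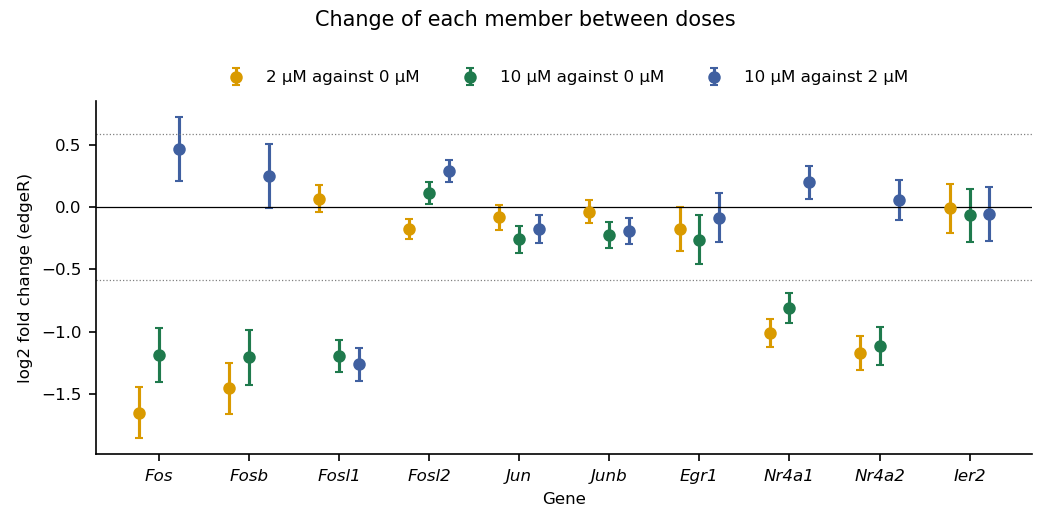
log2 fold change of each gene (vertical axis) with its SE (bars) in the 3 comparisons of doses, fitted with edgeR, where dotted lines mark a fold of 1.5. Fos, Fosb, Nr4a1 and Nr4a2 lie under the lower line at 2 µM and 10 µM against 0 µM, and Fosl1 at 10 µM against both other doses.

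A gene was called where edgeR's p, adjusted over all genes tested by Benjamini-Hochberg, was under 0.01 and the fold exceeded 1.5. Fos, Fosb, Nr4a1 and Nr4a2, 4 of the 10 members, were past that threshold and lower at 2 µM, where 0.378% of all genes tested were called lower and 0.119% higher. Together with Fosl1, 5 of the 10 were lower at 10 µM, where 1.14% of all genes were called lower and 1.95% higher. Between 10 µM and 2 µM, Fosl1 alone of the members was past the threshold, and 1.59% of all genes were called lower and 3.92% higher. The members were chosen with these values known, so nothing is read from the counts. Without the second or the third library at 0 µM, or the second at 2 µM, 0 of the members were past the threshold at 2 µM, and 2 of them were without the first library at 2 µM. At 10 µM the number was 2 without the second or the third library at 0 µM, 3 without the first and 1 without the second at 10 µM.

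By libraries alone, 4 of the 10 members lay wholly below the untreated libraries at 2 µM, against 12.9% of all genes tested. At 10 µM 7 of the 10 did, Fosl1, Jun and Junb besides the other 4, against 20.0% of all genes. Between the doses Fosl1 lay wholly lower at 10 µM, against 24.9% of all genes, and Fosl2 wholly higher, against 27.0%. The median log2 fold change of the 10 members was −0.18 at 2 µM, −0.54 at 10 µM and 0.00 for 10 µM against 2 µM, and over all genes tested it was −0.01, 0.02 and 0.03.

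Libraries of the same dose differed across members. The first library at 0 µM, the smallest of the 8, was the lowest of its dose for 9 of the 10 members, and the first at 10 µM was higher than the second for 8 of the 10. The same was not counted over all genes tested, so it is not read as a trait of the members.

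Other primary response genes, from 2 lists taken by name from general knowledge, were counted next. The lists were written with earlier results of these data known. Of all genes tested, 0.497% were called in either direction at 2 µM, 3.09% at 10 µM and 5.51% for 10 µM against 2 µM. Of 18 further transcription factors 17 were tested. At 2 µM 1 was called, Bhlhe40, a repressor with clock functions, which fell from 48.0 ± 6.76 to 26.9 ± 1.51 CPM (SD, n = 3 each) with a log2 fold change of −0.85 (SE 0.128, adjusted p = 0.00629, edgeR). At 10 µM it was also called against 0 µM, at 18.2 ± 4.11 CPM (SD, n = 2) with a log2 fold change of −1.41 (adjusted p = 0.000158, edgeR). Atf3, a stress-induced partner of JUN, rose at 10 µM from 3.95 ± 0.346 to 15.1 ± 0.489 CPM, with a log2 fold change of 1.96 (SE 0.134, adjusted p = 7.92e-06, edgeR). Between 10 µM and 2 µM Atf3 rose by 2.40 on the log2 scale (adjusted p = 2.07e-06, edgeR), and Maff, a small MAF protein, fell by 0.70 (adjusted p = 0.00514, edgeR). The median log2 fold change of the 17 was −0.02 at 2 µM and −0.50 at 10 µM. The Maff call was lost without the second library at 2 µM or either library at 10 µM.

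Srf, which drives many immediate early promoters, was at 46.6 ± 5.72 CPM at 0 µM, 57.9 ± 7.80 at 2 µM and 39.0 ± 5.11 at 10 µM. It was not called, with log2 fold changes of 0.31 (adjusted p = 0.174, edgeR) and −0.25 (adjusted p = 0.247, edgeR) against 0 µM. Between 10 µM and 2 µM its log2 fold change was −0.56 (adjusted p = 0.0140, edgeR), and it was called there by DESeq2, with no filter on low counts, and by edgeR without the first library at 0 µM or the third at 2 µM.

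Of 28 primary response genes that are not transcription factors 27 were tested. Of all genes tested, 0.497% were called in either direction at 2 µM. At 2 µM 2 were called and rose: Cyr61, a matricellular protein, from 147.2 ± 9.66 to 234.5 ± 17.3 CPM with a log2 fold change of 0.67 (adjusted p = 0.00486, edgeR), and its relative Ctgf, from 39.9 ± 1.85 to 60.9 ± 3.05 CPM with 0.61 (adjusted p = 0.00218, edgeR). They moved in the opposite direction to Fos in the same libraries. None of Bhlhe40, Cyr61 and Ctgf was called at 2 µM without the second or the third library at 0 µM or without any 1 library at 2 µM, and the highest adjusted p over the alternatives was 0.05002, 0.0466 and 0.0178 in that order.

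At 10 µM 6 of the 27 were called, 2 higher and 4 lower, where 3.09% of all genes tested were called in either direction. Btg2, an antiproliferative gene, rose by 0.97 on the log2 scale (adjusted p = 0.000383, edgeR), and Plk2, a polo-like kinase, by 0.62 (adjusted p = 0.00146, edgeR). Errfi1, a feedback inhibitor of the EGF receptor, fell from 123.4 ± 2.26 to 58.0 ± 0.338 CPM, a log2 fold change of −1.09 (adjusted p = 6.66e-06, edgeR). The MAP kinase phosphatases Dusp1 and Dusp6 fell by 0.77 (adjusted p = 0.000405, edgeR) and 0.63 (adjusted p = 0.000601, edgeR), and Ctgf fell by 0.65 (adjusted p = 0.000900, edgeR). The Plk2 call was lost with DESeq2, with no filter on low counts, and without the second or the third library at 0 µM or the second at 10 µM (adjusted p up to 0.0289 over the alternatives), and the Ctgf call without the first at 10 µM.

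Between 10 µM and 2 µM 7 of the 27 were called, of which only Btg2 rose, against 5.51% of all genes tested. The lower ones with the smallest p were Ctgf at −1.26, Errfi1 at −0.96, Cyr61 at −0.79 and Dusp6 at −0.59 on the log2 scale. Dusp1, which inactivates MAP kinases, was at 22.7 ± 0.659 CPM at 0 µM, 17.4 ± 0.318 at 2 µM and 13.3 ± 0.796 at 10 µM, and its log2 fold change at 2 µM of −0.38 was not called (adjusted p = 0.0297, edgeR). Zfp36, or tristetraprolin, which destabilises early response mRNAs, was at 6.01 ± 1.52, 6.18 ± 0.466 and 5.28 ± 1.86 CPM and was not called in any comparison.

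**Figure D5:**
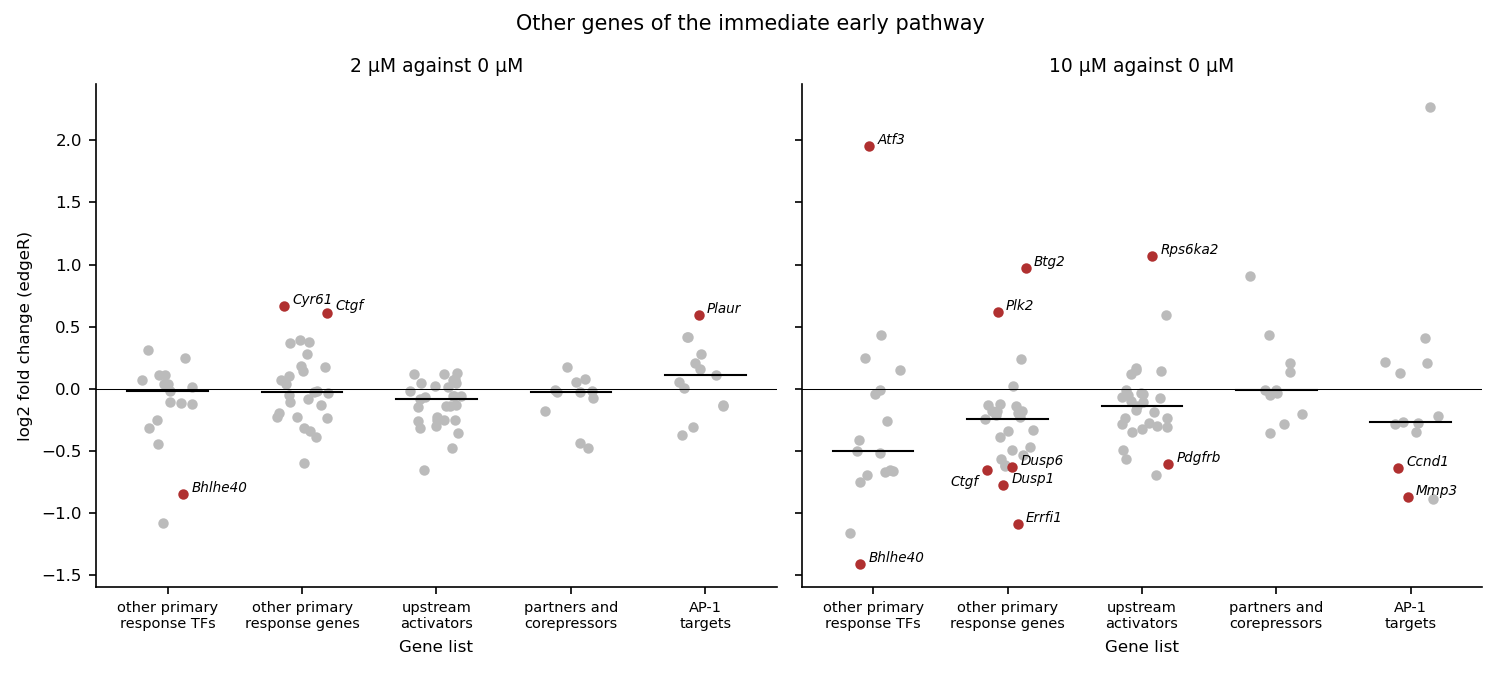
log2 fold change (vertical axis, edgeR) of each tested gene of 5 lists around the immediate early response, at 2 µM (left) and 10 µM (right) against 0 µM, with called genes in red and named and the median of a list as a line. At 2 µM 4 genes are called, Bhlhe40 lower and Cyr61, Ctgf and Plaur higher, and at 10 µM 12 are. Of all genes tested, 0.497% and 3.09% were called in the same order.

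The factors upstream of the members, 29 kinases, receptors, SRF partners and CREB family members that were all tested, held 0 calls at 2 µM with edgeR and 0 with DESeq2, where 0.497% of all genes tested were called in either direction. An unadjusted p under 0.05 was reached by 7 of the 29, against 21.3% of all genes. At 10 µM 2 were called, against 3.09% of all genes tested. Rps6ka2, an RSK kinase that acts below ERK, rose from 33.7 ± 0.295 to 70.7 ± 4.70 CPM with a log2 fold change of 1.07 (adjusted p = 1.92e-05, edgeR). Pdgfrb, a PDGF receptor and also one of the fibroblast markers, fell from 235.2 ± 2.85 to 154.9 ± 0.651 CPM with a log2 fold change of −0.60 (adjusted p = 0.000248, edgeR). Between the doses Rps6ka2 alone was called, higher by 1.02 on the log2 scale (adjusted p = 2.01e-05, edgeR).

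Dimer partners and corepressors of AP-1, EGR and NR4A, of which 11 of 12 were tested, held 0 calls in each of the 3 comparisons with edgeR and with DESeq2. An unadjusted p under 0.05 was reached by 3 of them at 2 µM, by 2 at 10 µM and by 2 for 10 µM against 2 µM, against 21.3%, 29.4% and 36.5% of all genes. The share of all genes called in either direction was 0.497%, 3.09% and 5.51% in the same order. Of 14 genes known as AP-1 targets, 13 were tested. At 2 µM Plaur, the urokinase receptor, rose from 22.9 ± 1.24 to 34.6 ± 1.68 CPM with a log2 fold change of 0.60 (adjusted p = 0.00347, edgeR), a call that was lost without the second or the third library at 0 µM or any 1 library at 2 µM, with adjusted p up to 0.0364 over the alternatives. At 10 µM the metalloproteinase Mmp3 fell from 16.7 ± 0.918 to 9.07 ± 0.302 CPM with a log2 fold change of −0.87 (adjusted p = 0.000708, edgeR), and Ccnd1, or cyclin D1, from 420.2 ± 4.00 to 270.5 ± 3.43 CPM with −0.64 (adjusted p = 0.000237, edgeR). Both were also lower at 10 µM than at 2 µM, by −0.75 and −0.74 on the log2 scale, and the Mmp3 call between the doses was lost without the first library at 10 µM.

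The pattern of Fos over the 8 libraries was most like that of Cpt1a, which encodes the enzyme that admits fatty acids to mitochondria (Pearson's r = 0.980 of log2 CPM), among 10058 genes outside the members with a mean of at least 5 CPM. Mbd5 (r = 0.973), Pnrc1 (r = 0.970), Zcchc24 (r = 0.970) and Lpin1, a phosphatidate phosphatase (r = 0.966), came next. For Cpt1a the level was 66.0, 64.2 and 65.0 CPM at 0 µM, 41.9, 41.7 and 49.5 CPM at 2 µM and 49.3 and 49.7 CPM at 10 µM. Among the members, Fos, Fosb, Nr4a1 and Nr4a2 had pairwise r between 0.964 and 0.985 over the 8 libraries, which share their doses. Among the genes most alike to Fosl1 were Smarca4, the BRG1 chromatin remodeller (r = 0.992), H2afx (r = 0.989), Nav3 (r = 0.987) and Ddx46 (r = 0.985). An r over 0.95 was reached by 14 genes with Fos and by 115 with Fosl1.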

How the data were processed

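Total RNA of 8 MEF libraries was sequenced with a stranded kit as paired reads. The authors trimmed the reads with Trim Galore and cutadapt, aligned them to mm10 with STAR 2.5.2a and deposited whole-number counts of uniquely mapped fragments per gene from featureCounts, without normalization.

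The deposited counts were analysed with edgeR 4.0.16 in R 4.3.3 (TMM, filterByExpr, then glmQLFTest after glmQLFit), with p adjusted by Benjamini-Hochberg. All 8 libraries entered 1 fit with dose as its factor, and log2 CPM used a prior count of 2. The SE is the log2 fold change over the square root of F. CPM used TMM-scaled totals, and lengths are union exons of GENCODE on GRCm38. Promoters came from RefSeq.

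The members and lists were chosen with earlier results of these data known. Named were all members, the called genes of each list (at most 4 per direction and comparison, by p), Dusp1, Zfp36 and Srf, and the 5 genes most like each of Fos and Fosl1, of which 1 is not reported here. Alternatives were RLE, nuclear-gene TMM, total counts, 2 other filters, DESeq2 1.42.0, the 2 groups compared only, a replicate block, no minimum fold and each library left out. The edgeR and DESeq2 calls were also run on simulated counts, with changes placed at 2 µM alone and the same dispersion for all genes. That setting is simpler than these data, so nothing is read from it here. Protein sequences were not analysed here.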

Additional observations from a re-analysis of the deposited data

How the results depend on the processing

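No member past the threshold changed direction in any of the 17 alternatives, and Fosl1 stayed past it at 10 µM in all of them. The main analysis had 71 genes called at 2 µM, 442 at 10 µM and 788 for 10 µM against 2 µM. With DESeq2 109 genes were called at 2 µM and with no minimum fold 107, 747 and 1539, in that order. With TMM over nuclear genes only, 69, 439 and 793 genes were called, and 4, 5 and 1 of the members were past the threshold, as in the main analysis. Total counts alone gave 914 at 10 µM. There the share of called genes that rose was 39.4%, 92.6% and 91.7%, against 23.9%, 63.1% and 71.2%, and the median of all log2 fold changes moved by 0.08, 0.21 and 0.14. With that scaling the log2 fold change of Nr4a1 at 10 µM was −0.60, and the calls of Dusp1, Dusp6, Ctgf, Ccnd1 and Pdgfrb at 10 µM, of Bhlhe40 at 2 µM and of Dusp6 and Maff for 10 µM against 2 µM were lost. Leaving out each library in turn gave 6 to 144 genes called at 2 µM, 235 to 633 at 10 µM and 444 to 884 between the doses. Of the members, 0 to 4 were past the threshold at 2 µM and 1 to 5 at 10 µM. Of the other primary response genes 0 to 4 were called at 2 µM. Of the activators, partners and AP-1 targets 0 to 1 were called at 2 µM and 4 to 7 at 10 µM. Without a minimum fold, 8 of these were called between the doses. With DESeq2, 14 primary response genes were called between the doses. A fit with 1 library at 10 µM assumes that it varies like the other groups. The cause of these changes was not tested.

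Libraries that share a replicate number did not deviate together in every pair. The correlation of their deviations was 0.199, 0.0845 and 0.161 between 0 and 2 µM and −0.145 to −0.0212 with 10 µM. All 6 libraries at 0 and 2 µM correlated best with the library of the other dose that has their own number, a hint from the data and not from the design. Total counts rose with the replicate number at both of these doses, and the part of depth in these correlations was not tested. With the replicate block 54, 322 and 735 genes were called at 2 µM, at 10 µM and for 10 µM against 2 µM, Fosb was not past the threshold at 2 µM and Fos and Fosb were not at 10 µM. The calls of Bhlhe40, Cyr61 and Plaur at 2 µM and of Plk2 at 10 µM were lost with it, and Srf was called for 10 µM against 2 µM. Then 3 members were past the threshold at 10 µM, 1 of the other primary response genes was called at 2 µM, and 0 of the activators, partners and targets were called there. Besides the block, Fosb was not past the threshold at 2 µM without the third library of that dose. At 10 µM it was not past it with the 2 groups compared only, or without the second library at 2 µM.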
